A study of Mus musculus with 2 samples.

Results

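Mature miRNAs that lie in introns of genes of metabolism were followed here in fibro-adipogenic progenitors (FAPs), the mesenchymal cells of skeletal muscle that can form adipocytes. The members are all listed arms of miR-103, miR-107, miR-378a and miR-33, chosen by name, and they make up 8 of the 628 rows of the deposited table (mmu-miR-103-3p and mmu-miR-107-3p are written without the species prefix below). The FAPs were sorted as Sca1+ cells from skeletal muscle of wild-type C57Bl/6 mice and grown until about 80% confluent in DMEM that held 20% FBS, 10% HS and FGF at 5 ng/ml. They were then kept for 24 h in basal medium (BM, DMEM with 10% HS) or in adipogenic differentiation medium (ADM), for which the sources used here give no composition, as they give no number, age or pooling of the mice. Each medium gave 1 small RNA library, so the comparison is between these libraries, no test between media was possible, and every interval below covers counting error only. The design asks which miRNAs of FAPs differ between the media at this early time.

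These miRNAs are transcribed inside protein-coding genes whose products work in metabolism. miR-103 and miR-107 come from genes of pantothenate kinases, which start the synthesis of coenzyme A, and in mouse fat and liver they are known to dampen insulin signalling. miR-378a comes from the gene of the coactivator PGC-1beta and is known in mouse for effects on mitochondrial metabolism and brown fat. miR-33 comes from the gene of the sterol regulator SREBP2 and is known to repress the cholesterol exporter Abca1. A miRNA finds its targets mainly through its seed, the bases 2 to 8 from its 5′ end.

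All 5 hairpins lay on the strand of their host gene, inside an intron of every annotated host transcript that spans them (GENCODE M21 on GRCm38, which is mm10). Mir103-1 lies on chromosome 11 at 35782396-35782481 in Pank3, Mir103-2 on chromosome 2 at 131288052-131288137 in Pank2, and Mir107 on chromosome 19 at 34820687-34820773 in Pank1. These 3 sit in intron 5 of the 6 introns of the principal host transcript. Mir33 lies on chromosome 15 at 82198122-82198190, in intron 16 of the 18 introns of Srebf2.

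Mature sequences were found in RefSeq (GRCm38.p6) for 6 of the 8 rows, all but miR-378a-3p and miR-378a-5p, and are shown 5′ to 3′ with the seed in capitals, since the seed decides which members belong together.
miR-103-3p: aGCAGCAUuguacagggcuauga
miR-107-3p: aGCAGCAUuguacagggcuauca
miR-103-2-5p: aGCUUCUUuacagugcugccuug
miR-107-5p: aGCUUCUUuacaguguugccuug
miR-33-5p: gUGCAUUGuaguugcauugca
miR-33-3p: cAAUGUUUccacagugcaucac
miR-103-3p and miR-107-3p share their seed and 22 of their 23 bases, and the substitution, counted from the 5′ end, is G22C. A read that ends before base 22 therefore fits both, and the sources used here do not say how such reads were shared between the rows. The 5p arms of Mir103-2 and Mir107 also share a seed and 22 of 23 bases, with the substitution C16U. No other row with a RefSeq match had a seed of these 6 rows.

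The hairpins that give miR-103-3p and miR-107-3p are shown with the 3p arm in capitals, because the 3p arm carries nearly all of the reads.
Mir103-1: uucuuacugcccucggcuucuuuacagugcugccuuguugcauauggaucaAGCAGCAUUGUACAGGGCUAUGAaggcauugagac
Mir103-2: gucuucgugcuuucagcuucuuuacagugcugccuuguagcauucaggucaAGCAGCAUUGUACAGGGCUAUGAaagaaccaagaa
Mir107: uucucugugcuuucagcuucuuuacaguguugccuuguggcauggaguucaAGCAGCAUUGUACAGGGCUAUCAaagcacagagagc
The 3p arm spans bases 52 to 74 of each hairpin, and it is the same in Mir103-1 and Mir103-2, so reads of miR-103-3p cannot be assigned to Pank3 or Pank2. Over the whole hairpin, Mir103-1 and Mir103-2 were 80.2% identical, and Mir103-2 and Mir107 83.9%. The 5p arms do differ between the hairpins of miR-103: miR-103-1-5p differs from miR-103-2-5p by G1A.

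Libraries of similar depth were compared, with 755193 reads in BM and 790617 in ADM as the reads taken as 100%. Levels are given in RPM, the percent of reads times 10000, in which a single read is worth 1.32 RPM in BM and 1.26 RPM in ADM. The mesenchymal list of miR-199, miR-214, miR-143 and miR-145, with 9 rows, held 7.40% of the reads in BM and 8.55% in ADM. Its rows went both ways, with a median log2 ratio of ADM to BM of -0.29. miR-143-3p went from 21636 to 42301 reads, and the joint row of miR-199a-3p and miR-199b-3p from 23921 to 18443. The skeletal muscle list took 0.906% of the reads in BM and 0.202% in ADM. All 4 of its 10 rows with a mean of at least 10 RPM were at least 2-fold lower in ADM. Of all 337 miRNAs above this minimum, 20.5% were. These 4 rows were miR-133a-3p, miR-133b-3p and both arms of miR-486, so they stand for fewer separate markers. The myoblast marker miR-206-3p had only 8 and 1 reads. The haematopoietic list had 1 and 4 reads, the epithelial list 20 and 16, the neural list 398 and 169, the endothelial list 0.0117% and 0.0257% of reads, and no row of the hepatic miR-122 was listed. The part of these other cell types in the results below was not tested.

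miR-378a-3p and miR-103-3p held nearly all reads of the 8 rows, and both were close to 2-fold higher in the ADM library. miR-107-3p was higher as well, by a smaller and less precise ratio, while the few reads of miR-33 did not separate the libraries. The 8 rows together held 1.04% of the BM library (95% exact Clopper-Pearson interval 1.02 to 1.06%) and 1.97% of the ADM library (1.94 to 2.001%), a ratio of 1.89 (1.84 to 1.95). miR-378a arms made up 80.2% of these reads in BM and 79.8% in ADM, so the sum mostly follows miR-378a-3p. Without miR-378a-3p, a choice made after the data were seen, the sum was 0.208% of BM and 0.402% of ADM reads.

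**Figure D1:**
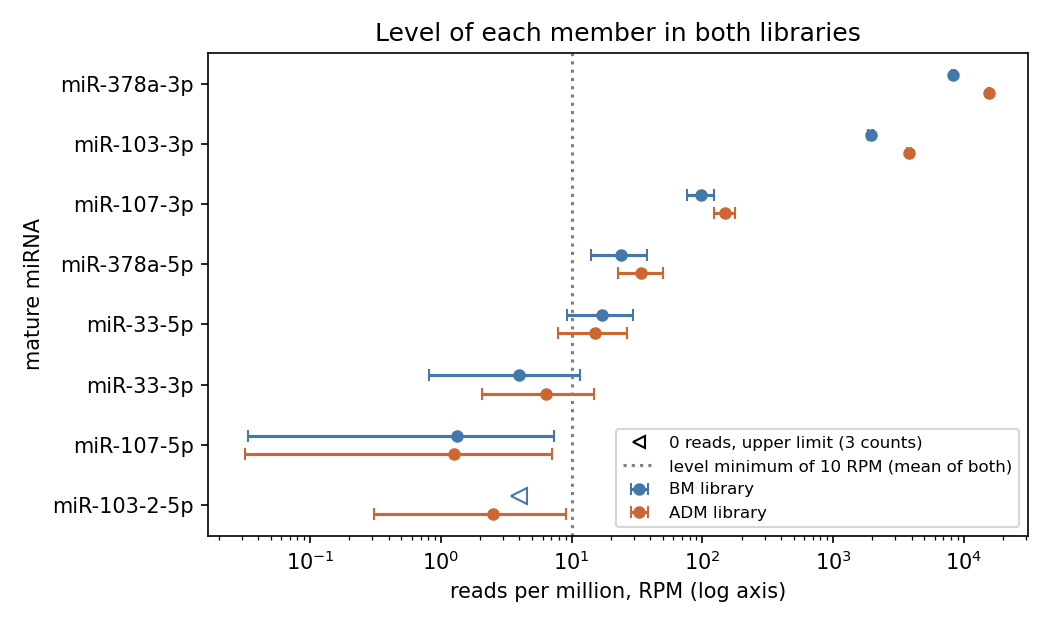
Level of the 8 rows in the BM library (blue) and the ADM library (orange), in RPM on a log axis, with 95% exact counting intervals as bars. The open triangle marks the upper limit for 0 reads, and the dotted line the minimum of 10 RPM for the mean. miR-378a-3p and miR-103-3p stand well above the rest, and their intervals in BM and ADM do not overlap.

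miR-378a-3p was the most abundant member; its hairpin lies on chromosome 18 at 61397835-61397900, in intron 1 of the 11 introns of Ppargc1b. It had 6286 reads in BM and 12402 in ADM, or 8324 RPM (8120 to 8531) and 15687 RPM (15414 to 15963). It stood at rank 27 of all miRNAs in BM and at rank 16 in ADM. The ratio of its shares was 1.88 (1.83 to 1.94), a log2 ratio of 0.91 with a pseudocount of 1 RPM. Counting error thus leaves it above 1 and below 2.

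Its opposite arm, miR-378a-5p, had 18 reads in BM and 27 in ADM, or 23.8 RPM (14.1 to 37.7) and 34.2 RPM (22.5 to 49.7), and these intervals overlap. Its ratio was 1.43, with an interval from 0.761 to 2.76 that includes both 1 and 2. The 5p arm supplied 0.286% of the hairpin's reads in BM (0.169 to 0.451%) and 0.217% in ADM (0.143 to 0.316%). The log2 ratio of the 5p arm differed from that of the 3p arm by -0.40 (-1.26 to 0.47), so a difference between arms was not detectable at this depth.

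The relatives miR-378c and miR-378d, which the choice by name leaves out, are encoded on chromosome 14 and chromosome 10. Their sequences are shown with the seed in capitals to let the seeds be compared.
miR-378c: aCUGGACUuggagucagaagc
miR-378d: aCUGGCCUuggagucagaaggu
miR-378d had 16 reads in BM and 30 in ADM, a ratio of 1.79 (0.946 to 3.52), and miR-378c had 1 and 3 reads, too few to compare. The sources used here do not say how reads that fit more than 1 of the miR-378 entries were counted.

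miR-103-3p, made from the introns of Pank3 and Pank2, was the second most abundant member. It had 1463 reads in BM and 3011 in ADM, or 1937 RPM (1839 to 2039) and 3808 RPM (3674 to 3947). It stood at rank 55 in BM and at rank 38 in ADM. The ratio of its shares was 1.97, with an interval of 1.85 to 2.09 that includes 2, and the log2 ratio was 0.97. Under median ratio scaling the log2 ratio was 1.04, which passes the 2-fold threshold.

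miR-107-3p, made from the intron of Pank1, had 74 reads in BM and 118 in ADM. Its level was 97.99 RPM (76.9 to 123.01) in BM and 149 RPM (123.5 to 179) in ADM, which are ranks 175 and 156. These intervals only just separate. The ratio was 1.52 (1.13 to 2.07), a log2 ratio of 0.60.

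miR-103-3p outnumbered miR-107-3p by 19.8 reads to 1 in BM and by 25.5 to 1 in ADM. This ratio within a library does not depend on how the library is scaled. The log2 value of the ratio was higher in ADM by 0.37 (95% counting interval -0.06 to 0.80). A difference between both miRNAs in their response to the medium was thus not detectable at this depth. The reads of both rows together came to 1537 in BM and 3129 in ADM. Their ratio was 1.94 (1.83 to 2.07).

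The 5p arms of these hairpins were almost unread. miR-107-5p had 1 read in each library, or 1.33% of the reads of both miR-107 arms in BM (0.0338 to 7.21%) and 0.840% in ADM (0.0213 to 4.59%). miR-103-2-5p had 0 reads in BM, which allows up to 3.97 RPM or 0.205% of the reads of both arms, and 2 reads in ADM, or 0.0664% (0.00804 to 0.240%). These counts are at or under the floor of 3 and give no fold. Which of the Pank2 and Pank3 introns supplied miR-103-3p could not be read from them, and no row of miR-103-1-5p was listed.

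miR-33, made from the intron of Srebf2, was close to the lower end of what these libraries can measure. miR-33-5p, the arm known to repress Abca1, had 13 reads in BM and 12 in ADM, or 17.2 RPM (9.17 to 29.4) and 15.2 RPM (7.84 to 26.5). Its ratio was 0.882, and the interval from 0.368 to 2.096 includes a difference of 2-fold in either direction. miR-33-3p had 3 and 5 reads and fell under the minimum of 10 RPM. Its BM count is at the floor of 3, so no fold is given. The 3p arm made up 18.8% of the hairpin's reads in BM (4.05 to 45.6%) and 29.4% in ADM (10.3 to 55.96%).

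The hairpin of miR-33 is shown with the 5p arm in capitals, since that arm had the larger number of reads in both libraries.
Mir33: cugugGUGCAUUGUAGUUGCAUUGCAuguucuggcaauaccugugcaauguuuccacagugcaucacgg
The 5p arm spans bases 6 to 26 of its 69 bases. By read count the major arm here was the 5p arm, while in miR-103, miR-107 and miR-378a it was the 3p arm. For miR-33 this rests on few reads, and in ADM the interval of the 3p share, 10.3 to 55.96%, includes an even split.

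The order of levels was the same in both libraries for the first 6 rows, from miR-378a-3p over miR-103-3p, miR-107-3p, miR-378a-5p and miR-33-5p to miR-33-3p. The first 3 steps exceeded counting error in both libraries. miR-378a-5p and miR-33-5p overlapped in their intervals in both libraries, as did both arms of miR-33. miR-107-5p and miR-103-2-5p could not be put in order.

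Of the 8 members, 5 had a mean of at least 10 RPM and 3 did not. At 2-fold, 0 of the 5 were higher and 0 lower, where 10.7% of all 337 miRNAs above the minimum were higher and 20.5% lower, or 31.2% in either direction. At 1.5-fold, 3 of the 5 were higher, miR-378a-3p, miR-103-3p and miR-107-3p, and 0 lower, where 22.3% of all were higher and 30.9% lower, or 53.1% in either direction. miR-107-3p, at a log2 ratio of 0.60, passed 1.5-fold narrowly and did not pass it with TMM scaling (0.50) or a pseudocount of 10 RPM (0.56). The 2-fold count sits at an edge as well. It was 1 under median ratio scaling, through miR-103-3p, and with denominators that leave out the 10 most abundant miRNAs of each library both miR-103-3p (log2 ratio 1.09) and miR-378a-3p (1.03) passed 2-fold.

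**Figure D2:**
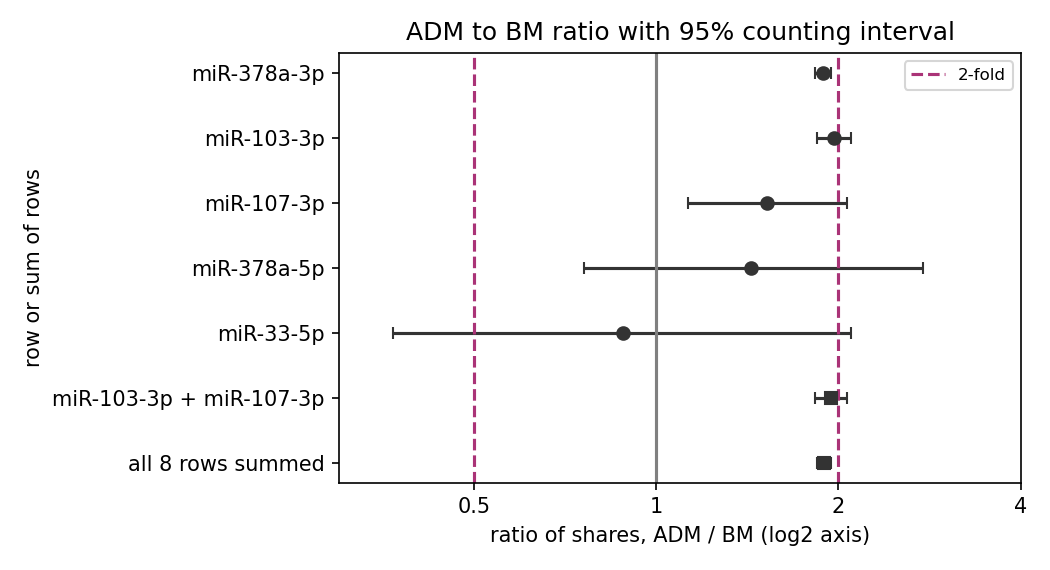
Ratio of the share of reads in ADM to that in BM, on a log2 axis, for the 5 rows above the level minimum (circles) and for sums of rows (squares), with 95% exact counting intervals. Dashed lines mark 2-fold in either direction. miR-378a-3p at 1.88 and miR-103-3p at 1.97 lie side by side, and the interval of miR-33-5p spans from 0.368 to 2.096.

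Against the whole table, the abundant members lay in the upper part of the distribution. The median log2 ratio of all 337 miRNAs was -0.02, with quartiles of -0.81 and 0.50. miR-103-3p lay 0.997 above this median and miR-378a-3p 0.94, distances that hardly depend on scaling by construction. In the order of ratios they stood at 40 and 48 of 337, miR-107-3p at 71, miR-378a-5p at 84 and miR-33-5p at 189. A level of 1000 RPM, which is not among the minimums set for the calls, left 72 miRNAs with a median of 0.11. Among these, 6 had a higher ratio than miR-103-3p and 8 a higher ratio than miR-378a-3p. Those 6 were miR-155-5p, miR-146b-5p, miR-192-5p, miR-93-5p, miR-30a-5p and miR-30c-5p, named after their values were seen.

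**Figure D3:**
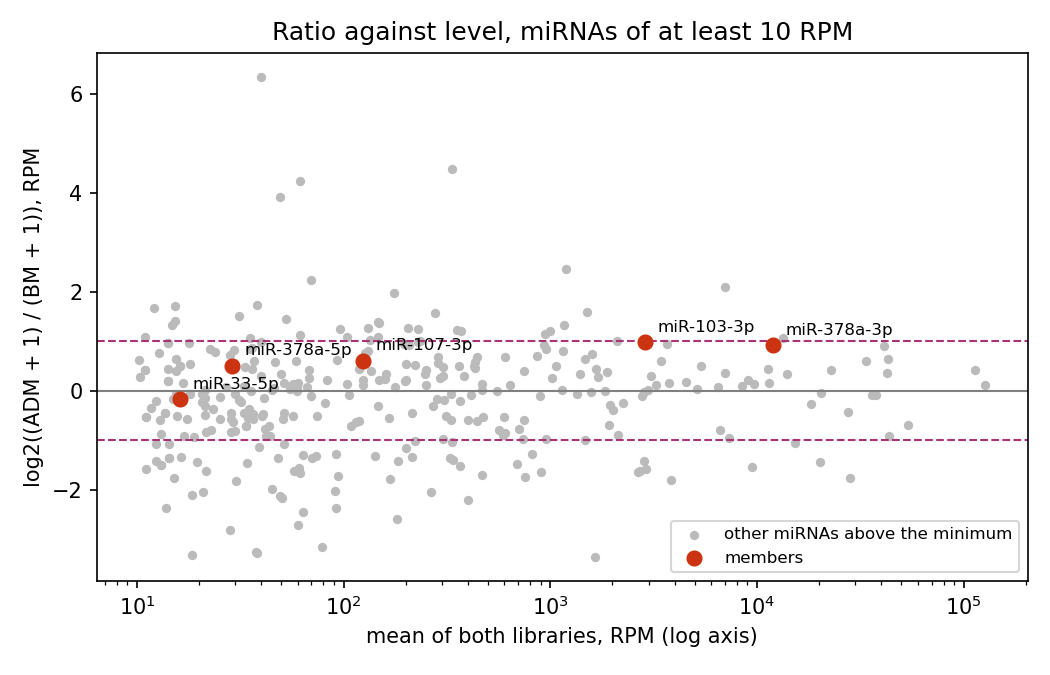
Log2 ratio of ADM to BM with a pseudocount of 1 RPM against the mean level in RPM (log axis) for the 337 miRNAs of at least 10 RPM, with the 5 members in red. Dashed lines mark 2-fold. miR-103-3p and miR-378a-3p lie just under the upper line, at 0.97 and 0.91.

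Ratios between members were compared in 10 pairs, each free of library scaling. miR-378a-3p and miR-103-3p, from unrelated host genes on chromosomes 18, 11 and 2, differed in log2 ratio by -0.06, with an interval of -0.16 to 0.04. There were 4.297 reads of miR-378a-3p for each read of miR-103-3p in BM and 4.119 in ADM. The interval excluded 0 in 1 pair, miR-103-3p against miR-33-5p (1.16, 0.02 to 2.29), which rests on 13 and 12 reads of miR-33-5p. miR-378a-3p differed from miR-107-3p by 0.31 (-0.11 to 0.73) and from miR-33-5p by 1.10 (-0.04 to 2.23).

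The miRNAs nearest to each member in the level of both libraries, over 2 values each, were found by distance in log2 RPM. For miR-378a-3p they were miR-30a-5p (6533 and 14248 reads), let-7a-5p (7287 and 10310) and miR-181a-5p (8221 and 9556). For miR-103-3p they were let-7g-5p (1901 and 3823), miR-25-3p (2069 and 3259) and miR-186-5p (2084 and 2685). For miR-107-3p they were miR-494-3p (71 and 127), miR-148b-5p (76 and 108) and miR-34a-5p (72 and 132). With only 2 libraries, such likeness describes levels and no shared pattern.

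miR-103 and miR-107 belong to a wider group related by the letters AGCAGC near the 5′ end, shifted by 1 base. In miR-103-3p and miR-107-3p the longer run AGCAGCA begins at base 1, and in miR-15, miR-16, miR-195a and miR-322, a branch known for repressing cell cycle genes and Bcl2, at base 2. The sequences below show the shift, with bases 2 to 8 in capitals.
miR-16-5p: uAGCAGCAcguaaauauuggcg
miR-15a-5p: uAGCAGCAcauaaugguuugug
miR-195a-5p: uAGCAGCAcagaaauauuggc
miR-322-5p: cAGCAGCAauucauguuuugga
Of the 516 rows with a RefSeq mature sequence, 7 (1.36%) held AGCAGCA, searched on the mature strand alone. Of these, 2 held it from base 1 and 5 from base 2. The row of miR-497-5p, whose ratio was 0.369, had no matched sequence and so was not searched. It is therefore missing from these 7 rows and from the sums and shares built on them.

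The matched rows that hold AGCAGCA from base 2, without miR-497-5p, went both ways. miR-15b-5p, with 270 and 397 reads, had a ratio of 1.40, while miR-322-5p, with 362 and 252 reads, had a ratio of 0.665 (0.564 to 0.783). Their summed reads, most of them miR-16-5p, were 10606 in BM and 13688 in ADM, a ratio of 1.23 (1.20 to 1.26), beside the 1.94 of miR-103-3p and miR-107-3p summed, most of them miR-103-3p. miR-103-3p and miR-107-3p thus made up 12.7% of the reads of all 7 rows in BM (12.1 to 13.3%) and 18.6% in ADM (18.0 to 19.2%). miR-16-5p, which dominates the branch, had 9401 and 12374 reads, a ratio of 1.26 (1.22 to 1.29). Its interval lies below that of miR-103-3p.

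Over the whole group as listed by name, 18 rows were present, of which 11 passed the minimum. At 2-fold, 0 of the 11 were higher, 2 lower and 9 neither, with a median log2 ratio of -0.06 beside -0.02 for all miRNAs. The lower share is near the 20.5% of all miRNAs. The highest was miR-103-3p at 0.97 and the lowest miR-497-5p at -1.43, with 202 and 78 reads. The other lower row was miR-195a-3p, with 18 and 7 reads, named after its value was seen. miR-15a-5p, with 277 and 397 reads, had a ratio of 1.37 (1.17 to 1.60).

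**Figure D4:**
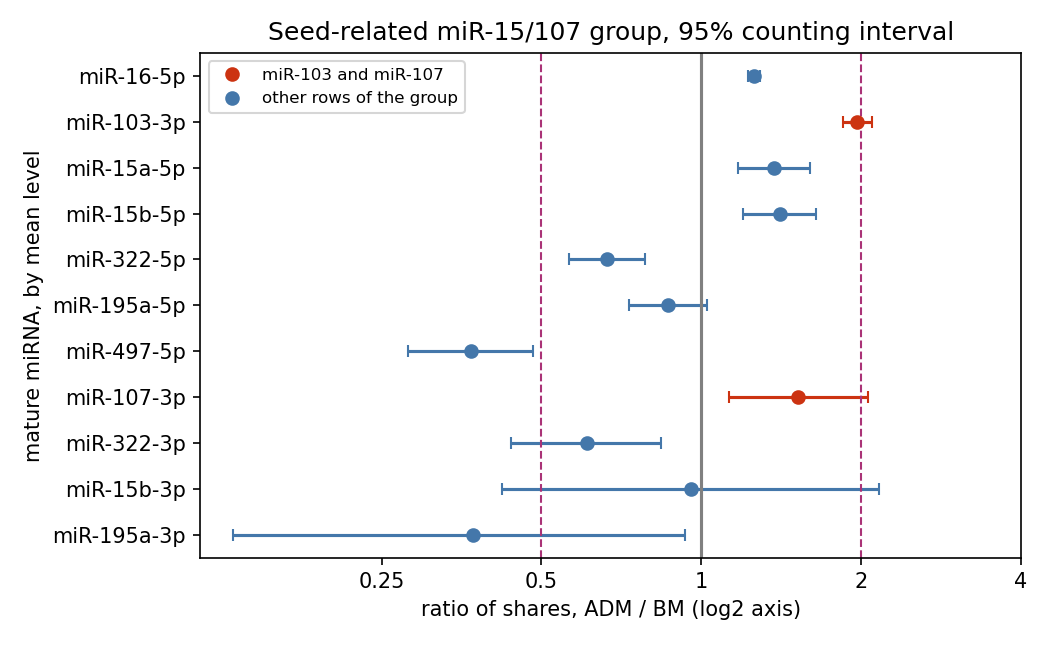
Ratio of ADM to BM shares (log2 axis) with 95% exact counting intervals for the 11 rows of the group of miR-15 and miR-107 above the minimum, ordered by mean level, with miR-103-3p and miR-107-3p in red. Their ratios of 1.97 and 1.52 are the highest of the group, and miR-497-5p at 0.369 is the lowest.

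Lists of miRNAs with known metabolic roles place the members among others of like function. Of 29 rows above the minimum on the insulin and glucose list, which holds miR-103 and miR-107 beside let-7, miR-29 and miR-143, 1 was at least 2-fold higher, 0 lower and 28 neither, with a median log2 ratio of 0.27, where 10.7% of all miRNAs were higher and 20.5% lower. The higher one was miR-98-5p, a let-7 relative, with 456 and 1094 reads (1.20). miR-143-3p, with 21636 and 42301 reads (0.90), had a ratio close to those of miR-103-3p and miR-378a-3p, while let-7f-5p had 0.36 and let-7c-5p 0.60. The lowest was miR-26b-3p (-0.71). Under median ratio scaling 4 were higher, as were 45 of all miRNAs.

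The cholesterol and lipid list, which holds miR-33, had 2 of 21 rows higher, 4 lower and 15 neither (median -0.01), near the 10.7% higher and 20.5% lower of all miRNAs. Its most abundant rows were miR-26a-5p (-0.70), miR-148a-3p (0.63), a repressor of the LDL receptor, and miR-10b-5p (-0.10). Its ratios ran from miR-335-3p, with 38 and 5 reads (-2.81), to miR-106b-5p, with 62 and 169 reads (1.37). miR-33-5p, at -0.17, lay a little below the median of this list.

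The brown and beige fat list, which holds miR-378a, had 6 of 30 rows higher, 3 lower and 21 neither (median 0.02), beside 10.7% higher and 20.5% lower of all miRNAs, and in either direction its share is near their 31.2%. It ran from miR-133a-3p, a brake on the brown fat regulator Prdm16 in mouse, with 2266 and 231 reads (-3.36), to miR-155-5p, with 277 and 1586 reads (2.45). miR-378a-3p, at 0.91, came in level next after miR-26a-5p (-0.70) and miR-27b-3p (-0.27). miR-133a-3p is also on the skeletal muscle list, which was lower in the same library, and the part of muscle cells in these ratios was not tested.

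**Figure D5:**
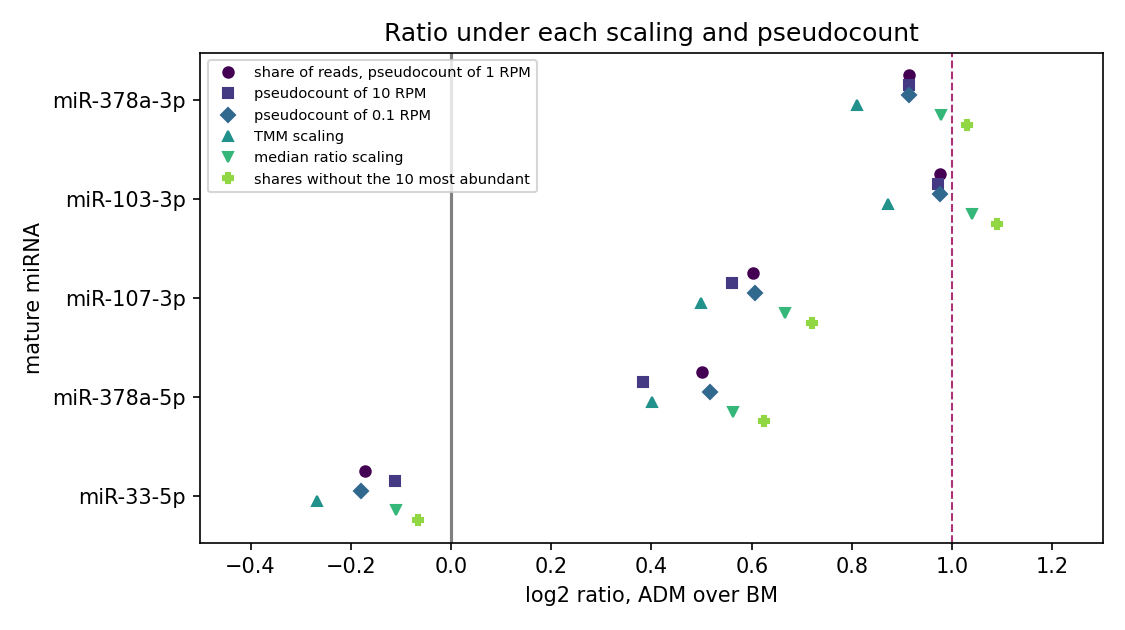
Log2 ratio of ADM to BM of the 5 members above the minimum under 6 choices of scaling and pseudocount, with the dashed line at 2-fold. miR-103-3p runs from 0.87 to 1.09 and miR-378a-3p from 0.81 to 1.03, and miR-33-5p stays below 0 under all 6. That sign is no support for a lower level. A pseudocount cannot change a sign, and no scaling moved the median of all miRNAs by more than 0.11.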

How the data were processed

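Per the labels' protocols, mirVana-extracted small RNA went through the TruSeq small RNA kit of Illumina, was size-selected on a gel at 147 bp and was sequenced on a MiSeq. Per the file headers, the authors gave each miRNA as a percent of reads made with miRanalyzer, and the sources used here give neither its version nor its handling of reads that fit several miRNAs. The genome build was mm10, per the submitters' processing notes. The authors' second deposited table holds the ratio of ADM to BM and a log column headed ln2 whose values are the log2 of that ratio, with 0 replaced by 0.5 read; it was used only for checks.

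The smallest deposited percent above 0 in a library was taken as 1 read, and 100% of the values came out as whole reads (tolerance 0.001 read). Differences were measured as log2((ADM + 1)/(BM + 1)) of RPM. A miRNA was called at a mean of at least 10 RPM and a 2-fold difference. Ratios of shares without the pseudocount have 95% exact conditional intervals, shares have exact Clopper-Pearson intervals, and differences between log2 ratios have normal counting intervals. A count of 0 allows up to 3 counts. Reads carry no molecular identifiers, so these cover counting error only. Python 3.11.15 and scipy 1.17.1 were used. Calls and intervals were tested on simulated reads with counting error alone and with planted changes larger than 2-fold. Variation between libraries and true differences near 2-fold were thus not covered. Members and lists were chosen with earlier results of these data known. Named are all members, the 3 most abundant rows and both extremes of each list, and the 3 nearest rows of members of at least 100 RPM. Alternatives were pseudocounts of 0.1 and 10 RPM, minimums of 0 and 100 RPM, thresholds of 1.5-fold and 3-fold, trimmed mean of M values (TMM) and median ratio scaling, and denominators without the 10 most abundant miRNAs.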

Additional observations from a re-analysis of the deposited data

How the results depend on the processing

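With 1 library per medium no replicate could be left out. No paired analysis was possible because each medium has 1 library. TMM scaling shifted the median log2 ratio of all miRNAs by -0.10, and leaving the 10 most abundant miRNAs out of the denominators by 0.11. The log2 ratio of miR-378a-3p was 0.81 with TMM, 0.98 with median ratio scaling and 1.03 without the 10 most abundant, and that of miR-103-3p 0.87 with TMM and 1.09 without them. None of the 5 members above the minimum changed sign under these scalings or either pseudocount. A pseudocount cannot change a sign, and each scaling moves all rows nearly alike, so this is no support for the direction of miR-33-5p. The count of members at least 2-fold apart was 1 of 8 without a minimum, 3 of 5 at 1.5-fold and 1 with median ratio scaling. For all miRNAs the count of 105 of 337 became 289 of 628 without a minimum, 179 of 337 at 1.5-fold and 47 of 337 at 3-fold. It was 50 with a minimum of 100 RPM, for which no total is given. The share of higher among the called was 34.3%, 45.3% without a minimum, 26.9% with TMM and 40.5% with median ratio scaling. Without a minimum, the miR-15 and miR-107, cholesterol, insulin, brown fat and miR-378 lists had 5, 12, 5, 18 and 1 rows apart. These lists held 18, 31, 39, 39 and 2 rows. With a minimum of 100 RPM the miR-15 and miR-107 group had 1 and the cholesterol list 3, beside the 50 of all miRNAs. At 1.5-fold the miR-15 and miR-107, cholesterol, insulin and miR-378 lists had 6, 10, 12 and 1 of 11, 21, 29 and 1 rows. At 3-fold the miR-15 and miR-107, cholesterol, insulin and brown fat lists had 0, 2, 0 and 4 of 11, 21, 29 and 30 rows. The totals at 1.5-fold and 3-fold are the rows above the minimum of 10 RPM. The miR-15 and miR-107 group had 1 of 11 with a pseudocount of 10 RPM, beside 83 of 337 for all miRNAs. With median ratio scaling the insulin list had 4, beside 111 for all miRNAs. Another minimum or threshold changes a count by construction, and the cause of other changes was not tested. The summed share of members was 0.847% of BM and 1.59% of ADM reads without miR-103-3p, and 0.208% and 0.402% without miR-378a-3p. Of 81 alternatives, 48 stayed within 1.5 times the count or within the counting interval and 33 did not. The 33 include sums with an abundant member left out, which must fall. They also include counts of 0, for which any other value was taken as a change. The number 33 is therefore no measure of how firm the results are. Depth limits miR-33 and the 5p arms most.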
